A study of Mus musculus with 24 samples.

Results

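The circadian clock genes described here were 10 of the 15160 genes counted in mouse liver, namely Arntl, Npas2, Clock, Per1, Per2, Per3, Ciart, Dbp, Nr1d1 and Nr1d2. They were picked by gene symbol, and the set was proposed with earlier results of these livers in view, so the differences of these 10 genes between groups are given as a description, without a test. All 10 passed the filter on low counts, as did 13336 genes in all. Livers came from male mice labelled as 5 months old that were killed after a 4 h fast. These mice ate a diet of elemental amino acids that held 0.86% methionine (the control diet, Con) or, for methionine restriction (MR), 0.17%. By the study's figure legends the diets were given from 8 weeks of age for 8 weeks. By its methods, calorimetry and a return to home cages followed those 8 weeks before livers were taken. WT mice were NRF2fl/fl, carrying floxed alleles of Nfe2l2, the gene of the stress-responsive transcription factor NRF2, without Cre. NRF2 KO mice, labelled NRF2fl/(alb), carried the same floxed alleles and Cre driven by the albumin promoter, which is active in hepatocytes. Whether Nfe2l2 stayed intact in the other cells of the liver was not tested here. Both genotypes were studied on both diets, with 6 mice in each of the 4 groups and 1 library per mouse. The time of day at which livers were taken is not given in the sources used here, so that collection time and group cannot be told apart for genes that cycle daily.

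The circadian clock is a loop of transcription and feedback that runs in nearly every cell with a period of about a day. BMAL1, encoded by Arntl, pairs with CLOCK or its relative NPAS2 and switches on genes whose promoters carry an E-box, among them the Per genes, Ciart, Dbp, Nr1d1 and Nr1d2. The PER proteins, with cryptochromes, and CIART hold this pair back, while the nuclear receptors encoded by Nr1d1 and Nr1d2 repress Arntl, Npas2 and Clock through ROR elements. In liver, Arntl and its targets peak at opposite times of day, and the clock sets daily rhythms in bile acid, lipid and glucose metabolism.

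Gene promoters in RefSeq (GRCm38.p6, 250 bases before to 50 bases after a start site) were found for 9 of the 10 genes, and 5 short stretches are shown because they hold the binding motifs of the loop just described, in capitals. Base 0 is the first transcribed base, and all stretches read 5′ to 3′ on the strand of the gene. In Per1 (chr11:69098749-69098848, plus strand, bases -200 to -101) and in Ciart (chr3:95882259-95882358, minus strand, bases -130 to -31) the capitals mark E-boxes, CACGTG, of which Ciart held 3. In Nr1d1 (chr11:98775378-98775477, minus strand, bases -100 to -1) they mark the related E′-box CACGTT, read as AACGTG. In Per3 (chr4:151044796-151044895, minus strand, bases -230 to -131) they mark 2 D-boxes, TTANGTAA, the site bound by DBP and its relatives. In Arntl (chr7:113207529-113207558, plus strand, bases 18 to 47) they mark the core of a ROR element, TAGGTCA.
Per1: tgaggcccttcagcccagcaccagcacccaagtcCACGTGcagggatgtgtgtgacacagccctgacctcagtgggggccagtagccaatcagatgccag
Ciart: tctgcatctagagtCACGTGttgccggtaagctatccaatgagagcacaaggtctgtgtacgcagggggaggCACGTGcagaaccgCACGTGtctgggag
Nr1d1: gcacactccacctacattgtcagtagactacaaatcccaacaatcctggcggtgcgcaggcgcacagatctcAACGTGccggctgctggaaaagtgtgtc
Per3: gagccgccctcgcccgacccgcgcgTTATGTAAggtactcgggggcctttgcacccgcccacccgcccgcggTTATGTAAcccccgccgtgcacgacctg
Arntl: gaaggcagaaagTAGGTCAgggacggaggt
Each motif was searched on both strands. Of all 32851 promoter windows of this length, 7.15% held the E-box, 4.69% the E′-box, 2.61% the ROR core and 2.32% the D-box. Of all 27025 genes with such windows, 8.09%, 5.44%, 2.97% and 2.72% held them in at least 1 window, in the same order. The E-box of Per1 and the ROR core of Arntl were each in 1 of the 2 windows of the gene. The cyclic AMP response element TGACGTCA, in 1.79% of windows, was in none of the windows of the 9 genes. Npas2, Clock, Dbp and Nr1d2 held none of the 5 motifs in these windows, and Per2 had no entry.

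Libraries were made with the QuantSeq 3′ kit, which yields 1 fragment near the 3′ end of each transcript. Mice WT_CON_7604 and WT_MR_7612, which stood apart from their groups in a principal component analysis of all genes, were left out of the values given first. Values are therefore from 22 mice, 5 in either WT group and 6 in either NRF2 KO group, whose libraries held 6197291 to 22068338 counts. Levels are CPM, counts brought to the same library size with TMM scaling in edgeR, and a gene is called when the quasi-likelihood test of edgeR gives it a p under 0.05 after Benjamini-Hochberg adjustment over all 13336 genes. The 6 hepatocyte markers listed summed to 80921 to 109364 CPM in WT Con, 71492 to 87494 in WT MR, 103894 to 123727 in NRF2 KO Con and 89251 to 111067 in NRF2 KO MR, so that on MR the genotypes did not overlap. Of the 6 markers, 1 was called lower for MR in WT, where 13.8% of all genes tested were called. Within NRF2 KO mice 1 was called lower on MR (12.6% of all genes). Between genotypes 1 was called higher in NRF2 KO on MR (1.93% of all genes). The part of these markers in the clock gene differences was not tested. Since whole liver was measured, fewer cells of a type and less RNA per cell cannot be told apart.

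The deleted gene was examined first. Per the study Cre removes sequence of exon 5, the last exon of Nfe2l2. Where the counted reads lie relative to the removed sequence is not given in the sources used here, so these counts do not check the deletion. With primers for exon 5, the study itself measured decreased Nfe2l2 mRNA in NRF2 KO livers by real-time PCR. The reads of Nfe2l2 were higher in NRF2 KO than in WT by 0.83 ± 0.21 (log2 fold change ± SE) on Con (edgeR adjusted p = 0.0453) and by 1.18 ± 0.22 on MR (edgeR adjusted p = 0.00353). The library labelled WT_CON_7607 stood apart, with 324 CPM of Nfe2l2 against 106 to 125 CPM in the other WT Con mice and 228 to 339 CPM in NRF2 KO Con. Without it the difference on Con was 1.27 (edgeR adjusted p = 6.43e-09), whereas the call on Con was lost when any of 20 other mice was left out. Without mouse WT_CON_7607 the largest move of a log2 fold change of the 10 clock genes in the 4 comparisons was 0.13, that of Arntl for NRF2 KO on Con, and the calls of Npas2, Dbp and Nr1d2 for MR in WT were lost.

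In WT Con livers the positive arm of the loop, Arntl, Npas2 and Clock, stood at its highest mean level of the 4 groups, and the Per genes, Ciart, Dbp and Nr1d2 stood at their lowest. WT Con was at one end of the 4 group means for all 10 genes, the highest for 4 and the lowest for 6. Between NRF2 KO Con and NRF2 KO MR the 10 genes had a median log2 difference of 0.07 and a median absolute difference of 0.07, while the median absolute difference of all genes tested was 0.17. Between WT MR and WT Con the median absolute difference of the 10 genes was 0.79 and that of all genes 0.19. Between NRF2 KO and WT it was 1.23 against 0.13 on Con and 0.41 against 0.13 on MR. MR in WT and NRF2 KO on Con were both measured against the same WT Con mice, so their likeness is not independent evidence. The plot of each gene by liver shows the values of the single mice, and the plot of log2 fold changes the differences.

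**Figure D1:**
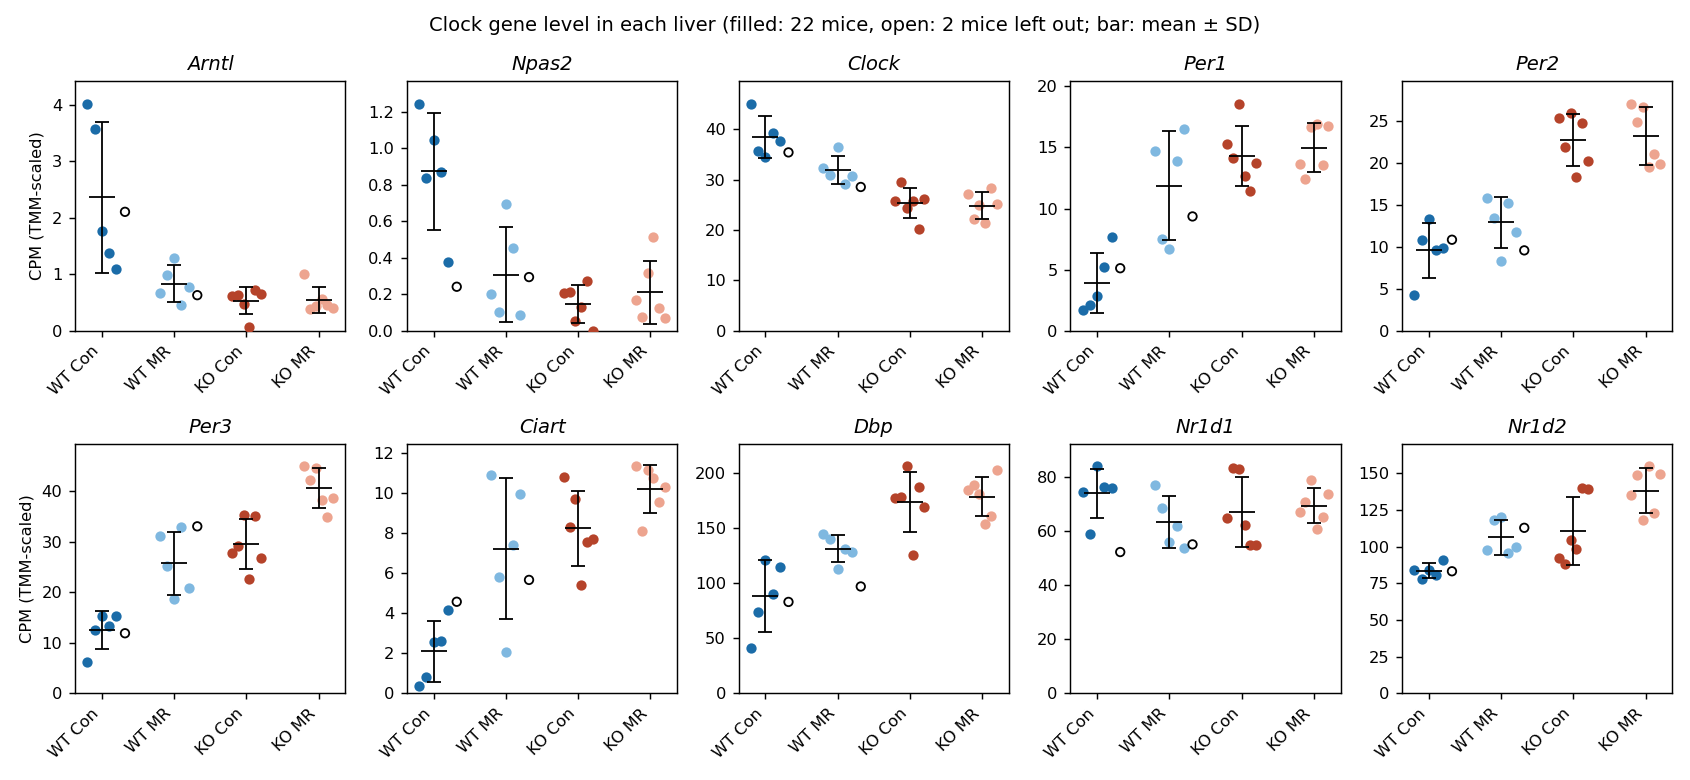
Level of each of the 10 clock genes in each liver, in TMM-scaled CPM on a linear axis from 0, by group. Filled points are the 22 mice used, open circles the 2 mice left out, and bars the mean ± SD of the filled points. The filled points of WT Con lie above those of NRF2 KO Con for Arntl, Npas2 and Clock and below them for Per1, Per2, Per3, Ciart and Dbp, with no overlap between the filled points of these 2 groups. The open circle of WT Con lies within the NRF2 KO Con range for Npas2.

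**Figure D2:**
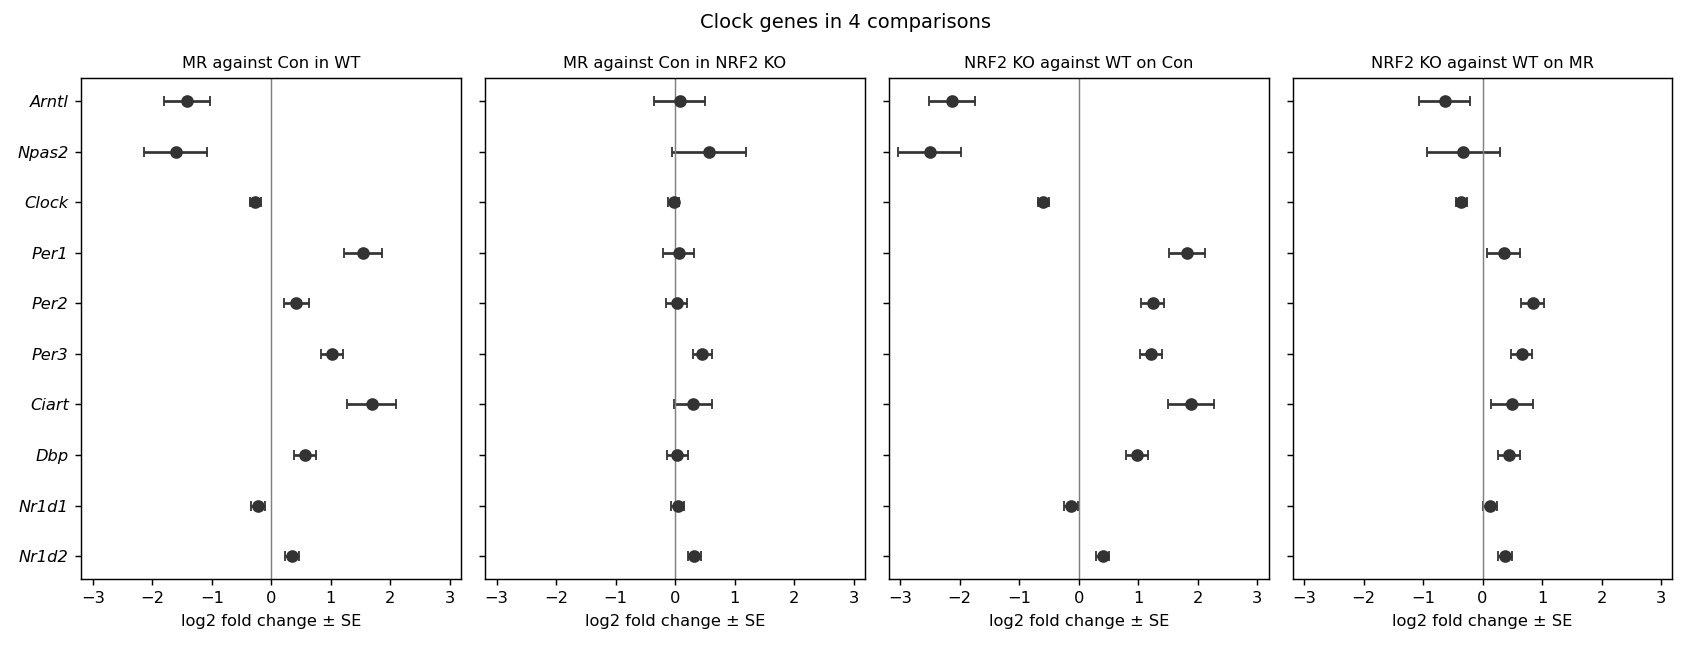
Log2 fold change (x axis) of the 10 clock genes in 4 comparisons, as edgeR's estimate (point) ± SE (bar), given as a description. In the panel of MR against Con in NRF2 KO the points lie between -0.03 and 0.58, while in that of NRF2 KO against WT on Con they run from -2.51 to 1.89.

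Arntl (ENSMUSG00000055116, chr7:113207465-113314126 in GRCm38, plus strand) encodes BMAL1, the partner that the positive arm cannot do without. Its level in the WT Con mice was 4.02, 3.57, 1.77, 1.37 and 1.09 CPM, and in the WT MR mice 0.664, 0.987, 1.30, 0.452 and 0.777 CPM. In NRF2 KO Con it ran from 0.0662 to 0.726 CPM with a median of 0.627, and in NRF2 KO MR from 0.386 to 1.01 CPM with a median of 0.450. All WT Con mice lay above all NRF2 KO mice, and only 1 WT MR mouse, WT_MR_7613, reached the lowest WT Con values. The log2 fold change was -1.42 ± 0.39 for MR in WT and -2.13 ± 0.38 for NRF2 KO on Con, against 0.08 ± 0.42 for MR in NRF2 KO and -0.64 ± 0.42 for NRF2 KO on MR. Without mouse WT_CON_7607 the values for MR in WT and for NRF2 KO on Con were -1.55 and -2.27, and with all 24 mice -1.49 and -2.12. Arntl rested on 19 to 55 counts per library in WT Con and on 1 to 12 in NRF2 KO Con.

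Npas2 (ENSMUSG00000026077, chr1:39193731-39363236, plus strand), whose product can stand in for CLOCK beside BMAL1, was counted still more thinly, with 9 to 20 counts per library in WT Con and 0 to 4 in NRF2 KO Con. It stood at 1.24, 0.836, 1.04, 0.867 and 0.378 CPM in WT Con and at 0.199, 0.104, 0.692, 0.452 and 0.0863 CPM in WT MR. The highest NRF2 KO Con mouse had 0.272 CPM and the highest NRF2 KO MR mouse 0.512 CPM, while mouse KO_CON_7623 had no count, which allows up to 0.246 CPM at 3 counts. WT Con and NRF2 KO Con did not overlap, and WT Con and WT MR did. The log2 fold change was -1.61 ± 0.53 for MR in WT, -2.51 ± 0.53 for NRF2 KO on Con, 0.58 ± 0.63 for MR in NRF2 KO and -0.32 ± 0.61 for NRF2 KO on MR. Mouse WT_CON_7604, left out here, stood at 0.241 CPM, inside the NRF2 KO Con range.

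Clock (ENSMUSG00000029238, chr5:76209868-76304792, minus strand), the other partner of BMAL1, differed less but was counted well, with at least 193 counts in every library. Its levels were 45.1, 35.7, 34.5, 39.2 and 37.7 CPM in WT Con, and 32.3, 30.9, 36.5, 29.1 and 30.7 CPM in WT MR. NRF2 KO Con ranged from 20.3 to 29.5 CPM (median 25.8) and NRF2 KO MR from 21.4 to 28.4 CPM (median 25.0). Every WT mouse on Con lay above every NRF2 KO mouse, and on MR the lowest WT mouse lay above the highest NRF2 KO mouse. Log2 fold changes were -0.60 ± 0.09 for NRF2 KO on Con, -0.36 ± 0.09 for NRF2 KO on MR, -0.27 ± 0.10 for MR in WT and -0.03 ± 0.09 for MR in NRF2 KO.

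Per1 (ENSMUSG00000020893, chr11:69095217-69109960, plus strand), a repressor of the loop that also answers to hormone and feeding signals, had the E-box shown above. In WT Con it stood at 1.68, 2.13, 2.87, 5.20 and 7.65 CPM and in WT MR at 14.7, 7.53, 6.66, 13.9 and 16.5 CPM. NRF2 KO Con mice ranged from 11.4 to 18.6 CPM (median 13.9) and NRF2 KO MR mice from 12.4 to 16.9 CPM (median 15.2). WT Con did not overlap with either NRF2 KO group, and 2 of the WT MR mice, WT_MR_7611 and WT_MR_7613, lay under the highest WT Con mouse. The log2 fold change was 1.54 ± 0.32 for MR in WT and 1.83 ± 0.30 for NRF2 KO on Con, against 0.06 ± 0.26 for MR in NRF2 KO and 0.35 ± 0.28 for NRF2 KO on MR. Without mouse WT_CON_7607 the values for MR in WT and for NRF2 KO on Con were 1.63 and 1.92.

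Per2 (ENSMUSG00000055866, chr1:91415982-91459324, minus strand) separated the genotypes on both diets. WT Con mice stood at 4.24, 10.8, 13.3, 9.61 and 9.79 CPM and WT MR mice at 15.8, 13.5, 8.30, 15.2 and 11.7 CPM, while NRF2 KO mice ranged from 18.3 to 26.0 CPM on Con and from 19.5 to 27.0 CPM on MR. No WT mouse reached the lowest NRF2 KO mouse, and the 2 WT groups overlapped. Its log2 fold change was 1.24 ± 0.20 for NRF2 KO on Con and 0.84 ± 0.19 for NRF2 KO on MR, against 0.42 ± 0.21 for MR in WT and 0.02 for MR in NRF2 KO. 

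Per3 (ENSMUSG00000028957, chr4:151003652-151044665, minus strand), the gene with the paired D-boxes, had its levels stepped across the 4 groups. In WT its mean ± SD was 12.6 ± 3.78 CPM on Con and 25.8 ± 6.24 CPM on MR (n = 5 each), and in NRF2 KO it was 29.5 ± 4.95 CPM on Con and 40.7 ± 3.97 CPM on MR (n = 6 each). The highest WT Con mouse, at 15.4 CPM, lay below the lowest WT MR mouse, at 18.7 CPM, whereas WT MR and NRF2 KO Con overlapped. Log2 fold changes were 1.22 ± 0.18 for NRF2 KO on Con, 0.66 ± 0.18 for NRF2 KO on MR, 1.02 ± 0.19 for MR in WT and 0.46 ± 0.16 for MR in NRF2 KO. Per3 lies inside Camta1 on the same strand but shares no exon bases with it, and Camta1 stayed between 3.31 and 6.90 CPM in all 22 mice.

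Ciart (ENSMUSG00000038550, chr3:95878503-95882251, minus strand), a repressor of BMAL1 and the gene with 3 E-boxes in its promoter window, varied most among WT Con mice, 11.4-fold from the lowest to the highest. WT Con mice stood at 0.366, 0.836, 2.56, 2.60 and 4.16 CPM and WT MR mice at 10.9, 5.82, 2.07, 7.38 and 9.93 CPM. NRF2 KO Con ranged from 5.42 to 10.8 CPM and NRF2 KO MR from 8.11 to 11.3 CPM, both wholly above WT Con. The mouse WT_MR_7613, with 2.07 CPM, lay within the WT Con range and also had the highest Arntl and the lowest Per1 and Per2 of its group. Log2 fold changes were 1.69 ± 0.41 for MR in WT and 1.89 ± 0.39 for NRF2 KO on Con, against 0.30 for MR in NRF2 KO and 0.50 for NRF2 KO on MR. With all 24 mice the same values, for MR in WT and NRF2 KO on Con, were 1.41 and 1.66. C920021L13Rik, transcribed on the opposite strand across Ciart, shares no exon bases with it and had means of 4.15 CPM in WT Con and 4.11 CPM in NRF2 KO Con.

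Dbp (ENSMUSG00000059824, chr7:45705088-45710203, plus strand) encodes a PAR bZIP factor that carries the clock's signal to genes of liver metabolism. It stood at 41.5, 73.8, 121, 90.4 and 114.8 CPM in WT Con and at 144.8, 139.8, 112.6, 131 and 128 CPM in WT MR. NRF2 KO Con ranged from 125 to 206 CPM (median 178) and NRF2 KO MR from 154 to 202 CPM (median 182). Every NRF2 KO mouse lay above every WT Con mouse, and the WT groups overlapped in 1 WT MR mouse, WT_MR_7613. The log2 fold change was 0.97 ± 0.18 for NRF2 KO on Con, 0.57 ± 0.19 for MR in WT, 0.44 for NRF2 KO on MR and 0.04 for MR in NRF2 KO. The last exon of Dbp overlaps 539 exon bases of Sphk2 on the opposite strand. Whether counting used strand is not given in the sources used here, in which case reads of the 2 genes cannot be told apart. Sphk2 had means of 43.4 CPM in WT Con and 27.4 CPM in NRF2 KO Con.

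Of the nuclear receptor genes, Nr1d1 had similar means in all groups and Nr1d2 was lowest in WT Con, as the Per genes, Ciart and Dbp were. Nr1d1 (ENSMUSG00000020889, chr11:98767932-98775333, minus strand), which encodes REV-ERBα, had overlapping levels in all 4 groups, with means ± SD of 73.8 ± 9.09 CPM on Con and 63.3 ± 9.58 CPM on MR in WT, and of 67.0 ± 12.9 and 69.3 ± 6.56 CPM in NRF2 KO. Its 4 log2 fold changes lay between -0.22 and 0.13. It shares 263 exon bases at its 3′ end with Thra on the opposite strand, so their reads cannot be told apart if strand was not used. Nr1d2 (ENSMUSG00000021775, chr14:18204054-18239127, minus strand), which encodes REV-ERBβ, had means of 83.5 ± 5.04, 106 ± 12.0, 110 ± 23.3 and 138 ± 15.2 CPM in the same order. All WT Con mice, at 77.6 to 91.1 CPM, lay below all WT MR mice, at 95.7 to 120 CPM. Its log2 fold changes were alike in size, 0.40 ± 0.11 for NRF2 KO on Con, 0.38 ± 0.11 for NRF2 KO on MR, 0.35 ± 0.12 for MR in WT and 0.32 ± 0.11 for MR in NRF2 KO.

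Counted by the call at an adjusted p under 0.05, 7 of the 10 genes were called for MR in WT, where 13.8% of all genes tested were called, and 1 for MR in NRF2 KO, where 12.6% were. For NRF2 KO against WT, 8 were called on Con, where 2.07% of all genes were, and 2 on MR, where 1.93% were. These counts use the same comparisons with which the genes were chosen and are given beside the background without a reading. The groups did not overlap for 2 of the 10 genes for MR in WT (9.32% of all genes), 0 for MR in NRF2 KO (5.45%), 8 for NRF2 KO on Con (1.83%) and 4 for NRF2 KO on MR (4.60%). The calls on Con between genotypes held in each of 22 fits without 1 mouse. For MR in WT the count fell to 3 without mouse WT_CON_7602 or WT_CON_7603 and to 4 without WT_CON_7607, WT_MR_7609, WT_MR_7611, WT_MR_7616 or KO_MR_7625, and Dbp kept its call in 3, Nr1d2 in 7 and Npas2 in 13 of the 22 fits. For MR in NRF2 KO it was 0 without KO_CON_7617, KO_CON_7618, KO_CON_7620, KO_CON_7621, KO_MR_7625, KO_MR_7627, KO_MR_7629 or KO_MR_7632 and 2 without WT_CON_7602 or KO_CON_7622. For NRF2 KO on MR it was 0 without WT_MR_7613 or WT_MR_7616, and 1 without WT_MR_7611, KO_MR_7627, KO_MR_7628, KO_MR_7629 or KO_MR_7632.

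The interaction of genotype and diet, the change on MR in NRF2 KO minus that in WT, is given for these 10 genes as a description, since it rests on the livers with which they were chosen, and the counts of calls are given without a reading. None of the 10 genes was called in edgeR's test, in which 0.0450% of all genes were, while 6 of the 10 and 1008 of all 13336 genes had an unadjusted p under 0.05. DESeq2 called 1 of the 10, Per1, which edgeR also called without mouse WT_CON_7608, with a value of -1.92. The differences of the log2 fold changes, NRF2 KO minus WT, were 1.50 ± 0.58 for Arntl, 2.19 ± 0.83 for Npas2, -1.47 ± 0.41 for Per1 and -1.39 ± 0.52 for Ciart, and -0.02 for Nr1d2.

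Over the 10 clock genes the median spread from mouse to mouse was highest in WT Con, though not for each gene. The SD of log2 CPM was largest in WT Con for 5 genes, in NRF2 KO Con for 4 and in WT MR for 1, and that of Nr1d2 was 0.09 in WT Con against 0.29 in NRF2 KO Con. The median SD of log2 CPM within WT Con was 0.58 over the 10 genes against 0.23 over all genes tested. It was 0.36 against 0.20 in WT MR, 0.26 against 0.23 in NRF2 KO Con, and 0.17 against 0.18 in NRF2 KO MR. In WT Con the mice WT_CON_7602 and WT_CON_7603 had the highest Arntl and the lowest Per1, Ciart and Dbp, and mouse WT_CON_7608 had the lowest Arntl and Npas2 and the highest Per1 and Ciart. The mice left out, WT_CON_7604 and WT_MR_7612, each lay within the range of the other mice of their group for 7 of the 10 genes.

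A relation of Arntl to the other 9 genes from mouse to mouse was tested on deviations of log2 CPM from the group means over 22 mice, so that group differences did not enter. None of the 9 passed after adjustment in a two-sided permutation test of 100000 draws. Per1 had the strongest relation, with Pearson's r = -0.56 (p = 0.018, Benjamini-Hochberg adjusted over 9 relations 0.16) and Spearman's rho = -0.56 (p = 0.030, adjusted 0.26), and without the 2 mice of most extreme Arntl, KO_CON_7621 and WT_CON_7602, r was -0.72. Ciart had r = -0.44 (permutation p = 0.078, adjusted 0.35) and Dbp r = -0.25 (permutation p = 0.43, adjusted 0.49). Within single groups of 5 or 6 mice, given as a description, r of Arntl with Ciart was -0.97 in WT Con and -0.73 in WT MR but 0.72 in NRF2 KO Con and 0.58 in NRF2 KO MR. With Dbp it was -0.83 and -0.52 in WT, against 0.84 and -0.14 in NRF2 KO, and with Per1 -0.95 and -0.79 against 0.14 and -0.14, in the same order. The r over 22 mice thus joins groups with r of opposite sign. Among the fits that each left out 1 mouse, these r were most negative without mouse KO_CON_7621, in which Arntl rested on 1 count. No relation passed after adjustment in any other of these fits. Without mouse KO_CON_7621 r was -0.80 for Per1 (permutation test, adjusted p = 0.013), -0.75 for Ciart (adjusted 0.027), -0.66 for Dbp (adjusted 0.049) and -0.61 for Per3 (adjusted 0.045). Without mouse WT_CON_7602 the r of Per2 and of Dbp changed sign, to 0.09 and 0.06. Among the targets, deviations ran together most closely for Per2 and Per3 (r = 0.92) and for Per1 and Ciart (r = 0.87), which is a description over the same 22 libraries.

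**Figure D3:**
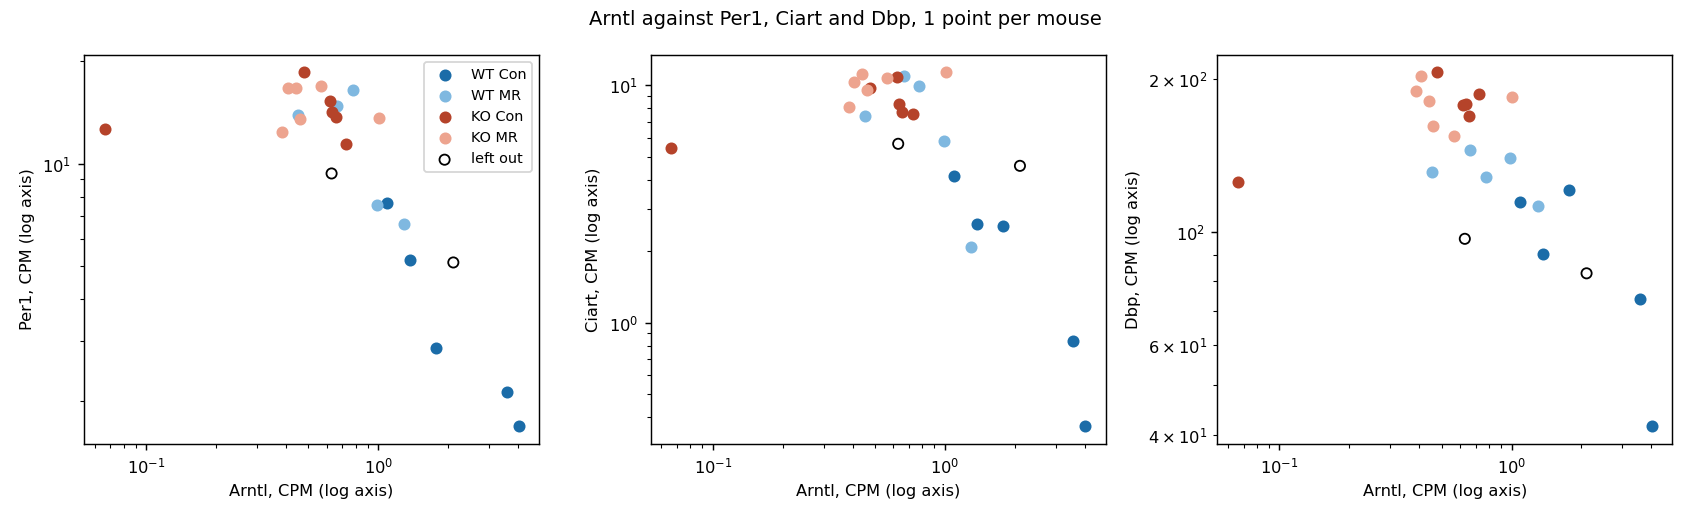
Level of Per1, Ciart and Dbp (y axes) against Arntl (x axes) in each liver, in CPM on log axes. Each point is 1 mouse, coloured by group, and open circles are the 2 mice left out. The coloured WT Con points lie between 1.09 and 4.02 CPM of Arntl, and among them Per1 and Ciart fall as Arntl is higher. The single point far to the left is mouse KO_CON_7621, with 0.0662 CPM of Arntl.

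The other parts of the clock, genes outside the set of 10, were also listed with earlier results of these livers known. Their calls come from the same livers and the same test over all genes, so they are not independent evidence. Of 18 further clock components listed, 16 were tested. For MR 1 was called in WT, where 13.8% of all genes were, and 1 in NRF2 KO, where 12.6% were. For NRF2 KO against WT 2 were called on Con (2.07% of all genes) and 0 on MR (1.93%). In that last comparison 2 of the 16 and 1851 of all 13336 genes had an unadjusted p under 0.05 in edgeR's test. DESeq2 called 1 of the 16 there, Tef. Tef, a relative of Dbp, rose on MR in WT from 120 to 186 CPM (0.63 ± 0.15 log2, edgeR adjusted p = 0.00669) and was higher in NRF2 KO than in WT on Con, at 234 CPM (0.96 ± 0.14, edgeR adjusted p = 0.000667), in 6 of 6 mice without overlap. Hlf, another PAR bZIP gene, was higher in NRF2 KO on Con by 0.56 ± 0.13 (edgeR adjusted p = 0.0194), a call lost without mouse WT_CON_7602, WT_CON_7607, WT_CON_7608 or KO_CON_7620, with values of 0.47 to 0.51. Bhlhe41, a repressor that competes for E-boxes, fell on MR in NRF2 KO by 1.64 ± 0.49 (edgeR adjusted p = 0.0325). This call was lost without mouse KO_CON_7617, KO_CON_7618, KO_MR_7625, KO_MR_7627, KO_MR_7628 or KO_MR_7632, with values from -1.62 to -1.47. In WT the change of Bhlhe41 on MR was -1.40 ± 0.50 (edgeR adjusted p = 0.0691), which did not pass. Its interaction was -0.24 ± 0.70 (edgeR adjusted p = 0.97). Cry1, the cryptochrome that works with the PER proteins, had 5.24 CPM in WT Con, 3.44 in WT MR, 5.36 in NRF2 KO Con and 4.02 in NRF2 KO MR and was not called by edgeR in any comparison, though DESeq2 called it for MR in WT. The median log2 fold change over the 16 genes lay between -0.15 and 0.12 in the 4 comparisons.

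Genes of liver metabolism known to be under clock control, a list also chosen with earlier results known, were counted in the same way. Of 13 listed and tested, 7 were called for MR in WT (5 higher, 2 lower, where 13.8% of all genes were called). For MR in NRF2 KO 4 were called (2 higher, 2 lower, where 12.6% of all genes were). For NRF2 KO against WT 3 were called on Con (2 higher, 1 lower, 2.07% of all genes) and 0 on MR (1.93%). In that last comparison 3 of the 13 and 1851 of all 13336 genes had an unadjusted p under 0.05 in edgeR's test. DESeq2 called 2 of the 13 there, Elovl3 and Gys2. In both MR in WT and NRF2 KO on Con 8 of the 13 had an unadjusted p under 0.05 in edgeR's test. Of all 13336 genes, 3779 and 1917 did, in the same order. The count for NRF2 KO on Con was 8 without mouse WT_CON_7608 and 2 without mouse WT_CON_7603. That for MR in WT was 3 in a fit of only the groups compared. Noct, a phosphatase of dinucleotide cofactors with a strong daily rhythm in liver, rose on MR in WT (1.47 ± 0.32, edgeR adjusted p = 0.00447) and was higher in NRF2 KO on Con (1.76 ± 0.30, edgeR adjusted p = 0.00307), from 4.01 CPM in WT Con to 11.6 and 14.2 CPM. In NRF2 KO its change on MR was -0.43 ± 0.26, and the interaction was -1.90 ± 0.41 (edgeR adjusted p = 0.123). Usp2, a deubiquitinase whose promoter answers to the clock, rose on MR in WT by 1.91 ± 0.47 (edgeR adjusted p = 0.0118). For NRF2 KO on Con its log2 fold change was 1.69 ± 0.46 (edgeR adjusted p = 0.0643), which DESeq2 called and edgeR did not. Cyp7a1, the rate-limiting enzyme of bile acid synthesis, rose on MR in WT by 1.84 ± 0.55 (edgeR adjusted p = 0.0330), a call lost without mouse WT_CON_7602, WT_CON_7603, WT_CON_7605, WT_CON_7607, WT_MR_7609, WT_MR_7615 or WT_MR_7616, with values of 1.61 to 1.80.

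Several of these outputs moved on MR in both genotypes. Insig2, which restrains the activation of SREBP, fell on MR by 1.59 ± 0.19 in WT (edgeR adjusted p = 1.95e-05) and by 1.17 ± 0.17 in NRF2 KO (edgeR adjusted p = 0.000157), and was lower in NRF2 KO on Con by -0.80 ± 0.17 (edgeR adjusted p = 0.0143), a call lost without mouse WT_CON_7603, with -0.69. Nampt, which makes NAD from nicotinamide, rose by 0.92 ± 0.10 in WT (edgeR adjusted p = 4.63e-06) and by 0.53 ± 0.09 in NRF2 KO (edgeR adjusted p = 0.000617). Por, the electron donor of the cytochromes P450, rose by 1.32 ± 0.24 in WT and by 1.13 ± 0.22 in NRF2 KO (edgeR adjusted p = 0.00119 and 0.00208). Elovl3, a fatty acid elongase, fell on MR in NRF2 KO by 3.23 ± 0.72 (edgeR adjusted p = 0.00697), with -1.45 ± 0.71 in WT, which did not pass. Gys2, the liver glycogen synthase, was higher in NRF2 KO on Con by 0.74 ± 0.12 (edgeR adjusted p = 0.000739). Avpr1a, a vasopressin receptor, fell on MR in WT by 0.74 ± 0.24 (edgeR adjusted p = 0.0401), a call lost without mouse WT_CON_7602, WT_CON_7607, WT_CON_7608, WT_MR_7609, WT_MR_7611, WT_MR_7613, WT_MR_7615 or WT_MR_7616, with values from -0.79 to -0.49. In all, 13 of the 31 alternatives lost this call, that over all 24 mice among them. None of the 13 was called in the interaction in edgeR's test. There 3 of the 13 and 1008 of all 13336 genes had an unadjusted p under 0.05, and DESeq2 called 1 of the 13, Noct.

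**Figure D4:**
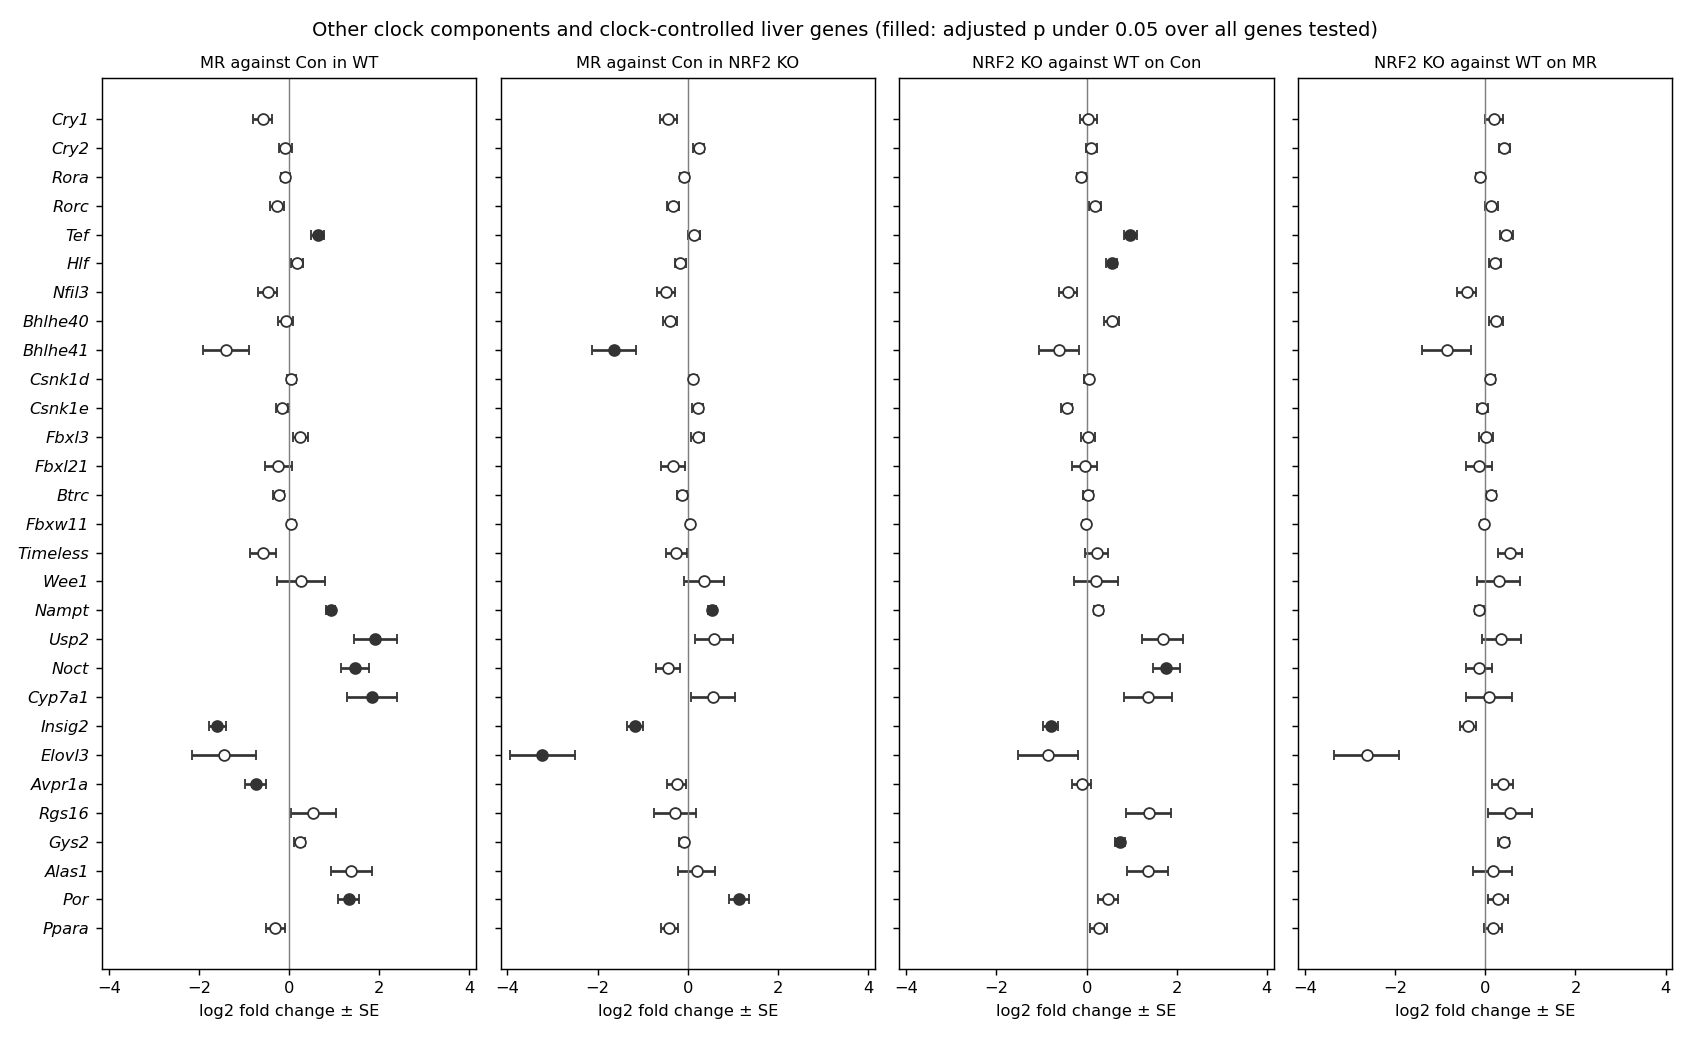
Log2 fold change (x axis) of 16 further clock components and 13 clock-controlled liver genes in 4 comparisons, as edgeR's estimate (point) ± SE (bar). Filled points have an adjusted p under 0.05 over all genes tested. Tef and Noct are filled in the panels of MR against Con in WT and of NRF2 KO against WT on Con, and no point is filled in that of NRF2 KO against WT on MR.

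Over the 22 mice, genes whose log2 CPM ran most like that of a clock gene were sought among 11988 genes outside the set with a mean of at least 1 CPM. With Dbp the highest Pearson correlations were those of Tef (0.95), Upp2 (0.91), Klf13 (0.90), Coq10b (0.89) and Usp2 (0.89), and the lowest those of Clpx (-0.87), Leo1 (-0.86), Arl4a (-0.86), Trmt9b (-0.85) and Asap2 (-0.83). With Arntl the highest were Tab2 (0.82), Trmt9b (0.81), Clpx (0.79), Gm20703 (0.78) and Cldn1 (0.78), and the lowest Baz1b (-0.78), Noct (-0.77), Dnajc11 (-0.77), Hnrnpul2 (-0.76) and Cdk4 (-0.76). These are descriptions over the same livers, groups included. Clpx and Trmt9b were in both lists with opposite signs.

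Genes that answer to the signals by which body clocks are set were counted beside these values. As background, the diet comparison called 13.8% of all genes tested within WT mice and 12.6% within NRF2 KO mice. The comparison of genotypes called 2.07% of all genes on Con and 1.93% on MR. No list below was tested against these shares. Of 5 glucocorticoid-responsive genes, 2 were called higher for MR in WT (Tsc22d3 by 0.78 ± 0.25 and Fkbp5 by 0.66 ± 0.21), 1 lower for MR in NRF2 KO (Dusp1 by -0.68 ± 0.21), 1 higher for NRF2 KO on Con (Tsc22d3 by 1.02 ± 0.24) and 1 higher for NRF2 KO on MR (Zbtb16 by 1.51 ± 0.35). Of 7 genes that answer to temperature, 3 were called higher for MR in WT (Hspa1b, Hsph1 and Hspa8) and 1 higher (Hsph1) and 1 lower (Hspa1a) for MR in NRF2 KO. For NRF2 KO on Con 1 was called higher (Hspa8 by 0.45 ± 0.09) and for NRF2 KO on MR 0 were called. In that last comparison 0 of the 7 and 1851 of all 13336 genes had an unadjusted p under 0.05 in edgeR's test. Of 48 markers of 10 other cell types, 38 were tested, and 12 were called lower and 0 higher for MR in WT, 7 lower and 1 higher for MR in NRF2 KO, 1 lower for NRF2 KO on Con and 0 for NRF2 KO on MR. The summed stellate cell markers stood at 487 to 743 CPM in WT Con, 412 to 520 in WT MR, 555 to 626 in NRF2 KO Con and 475 to 586 in NRF2 KO MR. Those of bile duct cells stood at 49.0 to 72.6, 20.9 to 28.3, 31.7 to 53.1 and 20.6 to 29.0 CPM, and those of Kupffer cells at 232 to 338, 196 to 221, 202 to 315 and 179 to 251 CPM, in the same order. The part of these genes and cells in the clock gene differences was not tested.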

How the data were processed

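Livers of 24 mice were profiled by QuantSeq 3′ sequencing. Per the study's methods the authors mapped and counted reads with Lexogen's QuantSeq FWD pipeline and deposited counts per gene, on GRCm38 (mm10) per the submitters' processing notes. Aligner, annotation and use of strand in counting are not given in the sources used here. The second table the authors deposited holds a normalized signal, each count divided by 1 size factor per mouse, as checked on the values. The same notes name DESeq2 1.18.1 and R 3.4.3 without a role. This table served as an alternative and for gene symbols, with 2101 of 2144 blank symbols filled from GENCODE M21. The study left out outliers of a principal component plot in WT Con and WT MR but its text gives no mouse numbers, and here WT_CON_7604 and WT_MR_7612, the farthest from their groups in such a plot, were left out.

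Counts were fitted in edgeR 4.0.16 (R 4.3.3) with TMM normalization, its filter by expression and quasi-likelihood tests with robust dispersions, as 1 model with 4 group means, and p-values were adjusted over 13336 genes by the Benjamini-Hochberg method. Log2 CPM used a prior count of 2. Scripts were tested on simulated data. Alternatives were limma 3.58.1, DESeq2 1.42.0, other scalings, filters and mice, and each mouse left out. Genes named are the 10 clock genes, listed clock components and clock-controlled genes called in at least 1 comparison, Nfe2l2, and the 5 highest and lowest correlations with Arntl and Dbp. Genes of the lists of glucocorticoid-responsive and temperature-responsive genes that were called, overlapping genes, and Cry1 are named in addition, chosen after their values were seen. The clock genes, the lists (other clock components, clock-controlled liver genes, glucocorticoid-responsive genes, temperature-responsive genes and cell type markers) and the motifs were chosen with earlier results of these data known. Beside the 13 clock-controlled genes counted, a further gene of that list is not reported here. Each library is a separate mouse, so errors are the SD between mice and the SE of the model.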

Additional observations from a re-analysis of the deposited data

Results flagged for a closer look

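A mouse was marked as apart from its group when its gap to the nearest other mouse, as a share of the range of the group, passed Dixon's 95% limit, which chance passes in about 1 of 20 groups. Over 23 genes and 92 groups of mice, 8 were marked. Among the clock genes this was so only for Arntl in NRF2 KO MR, where mouse KO_MR_7625 had 1.01 CPM against 0.386 to 0.564 in the others. In WT MR, mouse WT_MR_7613 had the lowest Tef (144.7 CPM against 194 to 200) and the highest Insig2 (127.5 CPM against 82.3 to 95.0), and it also had the highest Arntl of its group. In WT Con, mouse WT_CON_7608 had the highest Usp2 (68.4 CPM against 5.70 to 22.2) and the highest Cyp7a1 (181.7 CPM against 21.4 to 57.3), and it had the lowest Arntl of its group. In NRF2 KO Con, mouse KO_CON_7622 had 459 CPM of Cyp7a1 against 68.4 to 185.5. In NRF2 KO MR, mouse KO_MR_7631 had 91.6 CPM of Insig2 against 67.1 to 74.0. The library labelled WT_CON_7607 had 324 CPM of Nfe2l2 against 106 to 125 in the other WT Con mice.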

How the results depend on the processing

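No paired analysis was possible because every mouse has a number of its own. For the 10 clock genes, 1509 of 1510 log2 fold changes under the alternatives moved by less than the SD between mice. Called values kept their sign, but some that were not called changed it. Npas2 for NRF2 KO on MR went from -0.32 to 0.29 without mouse WT_MR_7613. Arntl for MR in NRF2 KO went from 0.08 to -0.19 without mouse KO_MR_7625. The log2 fold change of Clock for MR in NRF2 KO moved to 0.13 with scaling by library size only. Under that scaling the median of all genes tested stood at 0.15 for MR in NRF2 KO and at 0.09 for MR in WT. That scaling split the calls for MR in NRF2 KO into 2397 higher and 388 lower, against 831 and 846 with TMM, and for MR in WT into 1434 and 526 against 922 and 921. Npas2 did not pass the filter with 24 mice, and the filter at 10 counts in every mouse left 7 of the 10 genes. The fit of only the groups compared gives no interaction.

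For MR in WT, the calls among the 10 genes went from 7 to 3 with the filter at 10 counts and with only the groups compared. Calls among other clock components went from 1 to 2 with DESeq2 and 4 with all 24 mice, and among clock-controlled liver genes from 7 to 3 with only the groups compared. For MR in NRF2 KO, all calls went from 1677 to 2785 with library size only and 2693 with 24 mice and sample quality weights. The call among the 10 genes became 2 with these 2 settings and with DESeq2. The call among other clock components became 2 with library size only, sample quality weights and only the groups compared, and 0 with the filter at 10 counts and with the deposited normalized values.

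For NRF2 KO on Con, all calls went from 276 to 444 with DESeq2 and 99 with only the groups compared. The calls among the 10 genes went from 8 to 5 with the filter at 10 counts and with only the groups compared, and those among other clock components from 2 to 4 with DESeq2 and 1 with only the groups compared. For NRF2 KO on MR, all calls went from 258 to 496 with DESeq2, 600 with only the groups compared and 604 with sample quality weights. In the same order the calls among the 10 genes went from 2 to 4, 5 and 4, and to 1 with library size only and with all 24 mice. Those among other clock components went from 0 to 1, 2 and 2, and those among clock-controlled liver genes from 0 to 2, 1 and 1. DESeq2 called 36 genes in the interaction in place of 6, 1 of the 10 clock genes in place of 0 and 1 clock-controlled gene in place of 0. The cause of these moves was not tested, apart from the fewer genes or mice tested where a filter or a fit of single groups makes them fewer.

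With each mouse left out in turn, calls among the 10 genes ranged from 3 to 7 for MR in WT, 0 to 2 for MR in NRF2 KO, 0 to 3 for NRF2 KO on MR and 0 to 1 for the interaction. Those among other clock components ranged from 1 to 2 for MR in WT, 0 to 1 for MR in NRF2 KO and 1 to 3 for NRF2 KO on Con. Those among clock-controlled liver genes ranged from 2 to 8 for NRF2 KO on Con (8 without WT_CON_7608), and from 0 to 1 for NRF2 KO on MR and the interaction. All calls ranged from 181 (without WT_CON_7603) to 314 for NRF2 KO on Con and from 3 to 12 for the interaction. The relation of Arntl within groups ranged from -0.80 to -0.47 for Per1, -0.75 to -0.30 for Ciart, -0.61 to -0.0149 for Per3, -0.66 to 0.0644 for Dbp and -0.47 to 0.0897 for Per2, with the upper value of the last 3 without WT_CON_7602, where the sign turned for Dbp and Per2. For the other named genes only the comparisons in which edgeR had called the gene were followed. Of their 619 values under the alternatives, 559 kept their direction and call, 60 kept their direction and lost the call, and none turned. Arntl and Npas2 had the fewest counts of the 10 genes, so depth limits them most.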
